A study of Mus musculus with 36 samples.

Results

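The Hox gene clusters are 4 tight rows of homeobox genes, and 38 of their genes, taken from a fixed list, were read in maps of replication timing (RT) that cover 22350 protein-coding gene starts. The list held 10 Hoxa genes on chromosome 6, 10 Hoxb genes on chromosome 11, 9 Hoxc genes on chromosome 15 and 9 Hoxd genes on chromosome 2. Each gene was placed by its start in the mm9 genome, and the RT domain that covers the start gave its state, which was early (E), middle (M) or late (L). No RT value was used to choose the genes. All 38 genes had a state in all 3 maps.

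Repli-seq gives RT from cells that take up BrdU while they copy their DNA and are then sorted by DNA content into an early and a late part of S phase, from each of which the labelled DNA is sequenced. The series had 36 libraries in 7 groups of mouse B cells, and domain maps were read for 2 of these groups. The first map was of the CH12 line, which derives from a mouse B cell lymphoma. These cells had intact Rif1 and carried the control shRNA against LacZ after lentiviral infection and puromycin selection. The second was of primary activated splenic B cells of WT mice, of both sexes and an age not given. Both groups had 4 libraries, an early and a late fraction from each of 2 replicates, and both carry the label of a culture with IL4, CD40 and TGF beta stimulation. Per the methods, CH12 cells were clone F3 and replicates of sequencing experiments came from separately thawed vials. For Repli-seq, however, the methods call the 2 samples sorted for each fraction technical replicates. Which kind the 2 replicates here are is therefore not settled. A further map was named for mouse embryonic fibroblasts (MEFs) of WT genotype. The labels tie it to no sample, and the study lists its MEF Repli-seq as public data from another series, so comparisons with it also cross experiments. It is called the MEF-named map here. The Mcm6-depleted and Rif1-mutant groups were not analysed here.

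Replicates had been merged before states were called, so each condition had 1 map, no replicate error could be given, and no test between maps was possible. Genes of 1 cluster lie close together, so the 38 genes amount to 4 loci. Read depth is unknown from the maps. They give a state in 20 kb steps and no RT value, the values that separate the states can differ between maps, and an M state in one map and an E state in another therefore does not give the size of a difference in RT. The files number the states without naming them. The state that lay between the other two was taken as M, and of the outer states the one richer in genes was taken as E. Protein-coding gene starts came to 18.9, 8.41 and 3.76 per Mb in E, M and L of CH12, to 17.6, 7.77 and 2.88 in primary B cells and to 16.1, 6.48 and 3.29 in the MEF-named map.

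Hox genes encode transcription factors that bind DNA through a homeodomain and give cells their position along the head-to-tail axis of the embryo. The mammalian clusters arose by duplication of an ancestral row of genes, so that genes of the same number in different clusters, called paralogs, are closer in sequence to each other than to their neighbours. Low-numbered genes act toward the head and high-numbered genes toward the tail and the limb ends. Within a cluster the genes are switched on in their order along the chromosome, and outside their domains they are held silent by Polycomb repressors, while trithorax and MLL proteins keep them active. In blood, Hox genes such as those of group 9 are known from stem and progenitor cells and from leukaemia.

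Besides Hox genes, the clusters hold microRNA genes that take part in the control of Hox messages, and their mature sequences are shown because copies of the same microRNA lie in clusters of different state. The sequences are from RefSeq, from a table of the GRCm38.p6 build, with the seed, bases 2 to 8, in capitals.
mmu-miR-10a-5p: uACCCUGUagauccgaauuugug
mmu-miR-10b-5p: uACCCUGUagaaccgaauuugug
mmu-miR-196a-5p: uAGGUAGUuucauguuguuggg
mmu-miR-196b-5p: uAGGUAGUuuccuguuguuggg
Both miR-10 forms had the seed ACCCUGU and differed at 1 base outside it, and both miR-196 forms had the seed AGGUAGU and likewise differed at 1 base. Mir10a in Hoxb was M in CH12 and E in the other maps, while Mir10b in Hoxd was M in both B cell maps and E in the MEF-named map. The mature miR-196a is made from both Mir196a-1 in Hoxb, which was M in CH12 and E elsewhere, and Mir196a-2 in Hoxc, which was E in every map. Mir196b in Hoxa was M in CH12 and E in the other maps. Each microRNA gene thus had the states of the Hox genes around it, which follows from its place inside a cluster that no domain edge divides.

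The first question was in which state the Hox genes replicate in each cell type. In CH12 cells 9 of the 38 Hox genes were E, against 50.6% of all protein-coding gene starts, and 29 were M, against 27.2%. In primary B cells 29 were E, against 58.0% of all gene starts, and 9 were M, against 29.1%. In the MEF-named map all 38 were E, against 58.6%, and none was M, against 29.6%. No Hox gene was L in any map, while L held 22.1%, 12.9% and 11.9% of all gene starts in CH12, primary B cells and the MEF-named map. The E genes of CH12 were the 9 Hoxc genes, and the M genes of primary B cells were the 9 Hoxd genes.

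**Figure D1:**
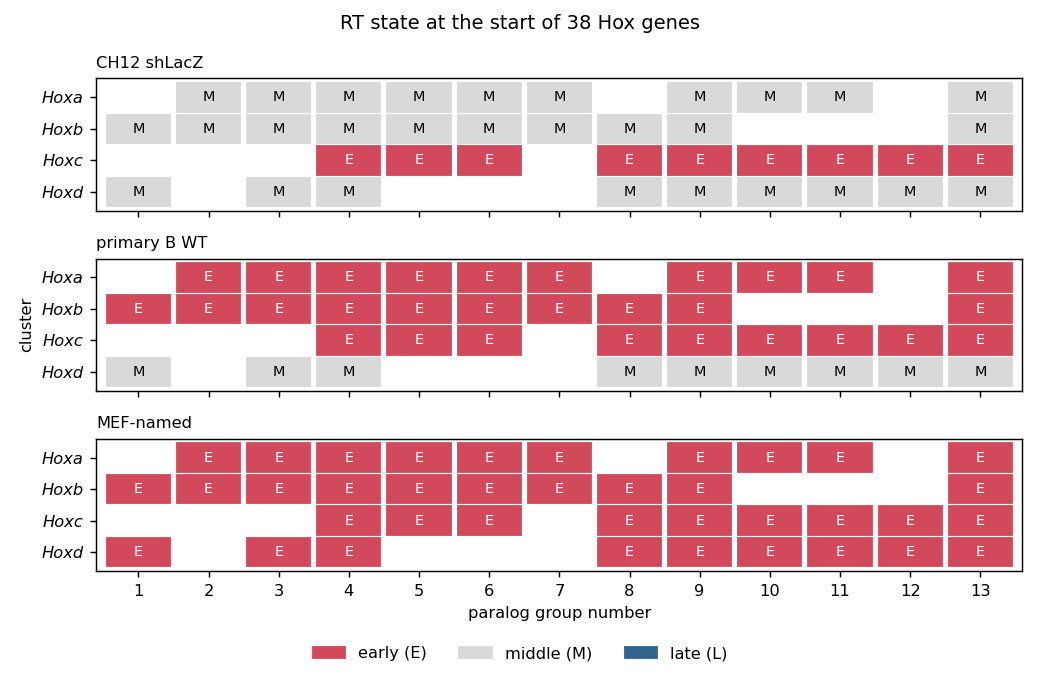
RT state at the start of each of the 38 Hox genes, with the cluster on the vertical axis and the paralog group on the horizontal axis, 1 panel for each map. Each row has a single colour: Hoxa and Hoxb turn from M in CH12 to E in the other maps, Hoxc is E in all 3, and Hoxd is E in the MEF-named map alone.

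Read across the maps in the order CH12, primary B and MEF-named, the Hox genes had 3 patterns. The 10 Hoxa and 10 Hoxb genes were M-E-E, a pattern of 5.46% of all gene starts. The 9 Hoxd genes were M-M-E, a pattern of 5.71%. The 9 Hoxc genes were E-E-E, the pattern of 43.9% of all gene starts. All genes of a cluster had the same pattern, whatever their number. Of the 13 paralog groups, 11 held genes of more than 1 pattern. Genes of different states were held by 9 groups in CH12 and by 9 in primary B cells. Since every gene had the pattern of its cluster, these counts only reflect which clusters a group spans. Groups 2 and 7 had a single pattern, and their listed genes lie in Hoxa and Hoxb only. In the MEF-named map no group was split. Groups 4, 9 and 13 had a member in every cluster. In group 9, for example, Hoxa9 and Hoxb9 were M in CH12 and E in the other maps, Hoxc9 was E in all 3, and Hoxd9 was M in both B cell maps and E in the MEF-named map.

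Between CH12 and primary B cells, 20 of 38 Hox genes, or 52.6%, had an earlier state in the primary B map, against 18.8% of all gene starts. None was earlier in CH12, against 2.75%. These 20 genes are the Hoxa and Hoxb clusters, hence 2 of 4 loci. The paper describes WT primary B cells as having relatively fewer early domains, and more mid ones, than CH12. The maps, however, held 660 E domains in primary B cells and 555 in CH12. An earlier state in the primary B map therefore need not mean an earlier RT value. Between CH12 and the MEF-named map 29 of 38, or 76.3%, were earlier in the MEF-named map, against 23.1%, and none was earlier in CH12, against 6.81%. These are Hoxa, Hoxb and Hoxd, 3 of 4 loci. Between primary B cells and the MEF-named map the 9 Hoxd genes, or 23.7%, were earlier in the MEF-named map, against 13.2%, and none was earlier in primary B cells, against 11.8%. Every one of these differences was a single step between M and E. The comparisons share maps, so their counts are not independent.

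The Hoxa cluster, whose genes pattern the neck, the limbs and the reproductive tract, spans chr6:52112350-52210874, or 98.5 kb, with its genes on the minus strand, so that Hoxa2 lies at the lower end and Hoxa13 at the upper end. In CH12 it lay inside an M domain of 1480 kb, with an E domain of 600 kb below it and an L domain of 540 kb above it. Of the 694 M domains of CH12 that lie between an E and an L domain, 665 were shorter, and their median was 300 kb. In primary B cells the cluster lay at the foot of an E domain of 760 kb, whose lower edge was 12.3 kb below the cluster, less than the 20 kb step of the map. Hoxa2, which acts in the hindbrain and the branchial arches, started 15.4 kb from that edge, Hoxa9 81.1 kb and Hoxa13, a gene of the limb ends and urogenital tract, 111 kb. In the MEF-named map the E domain reached 1910 kb below the cluster and was 2660 kb long. It ended at the same upper edge as that of primary B cells, 649 kb above the cluster. The cluster thus lay in M with E on one side and L on the other in CH12, at the lower end of an E domain in primary B cells and far from an edge in the MEF-named map.

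The Hoxb cluster spans chr11:96055630-96229570, or 174 kb, with its genes on the plus strand, and Hoxb13, known for its part in the prostate, lies apart from the rest at the lower end. In primary B cells and the MEF-named map it lay in E domains of 5620 and 5660 kb, and in primary B cells its genes started at least 2360 kb from the nearest edge. Of 660 E domains of primary B cells 652 were shorter, and of 567 in the MEF-named map 550 were shorter. In CH12 the cluster lay in an M domain of 480 kb, with E domains of 2240 and 2820 kb on its sides. Its lower edge lay 55.6 kb below Hoxb13 and its upper edge 250 kb above the cluster. Of the 200 M domains of CH12 that lie between E domains 113 were shorter, and their median was 400 kb. The Hoxb domain held 12 protein-coding gene starts, 25.0 per Mb against a median of 6.34, and 23 of the 200 were at least as dense. Most of the 12 starts were the 10 Hoxb genes themselves. A further gene in the domain was Skap1, an adaptor gene of T cell signalling, and it was M-E-E like the Hox genes. All 5 nearest genes below the cluster and the next 4 above Skap1 were E in every map.

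The Hoxc cluster spans chr15:102751534-102867274, or 116 kb, on the plus strand, with Hoxc13, a gene of hair and nails, at the lower end and Hoxc4 at the upper end. The E domain around it was 1760 kb long in CH12, 1680 kb in primary B cells and 7354 kb in the MEF-named map, where it ran to the end of the chromosome. Of the 567 E domains of that map 562 were shorter. The start of each of the 9 genes lay at least 571 kb from the nearest edge in every map, and the 10 nearest protein-coding genes outside the cluster were E in all maps. Hoxc was thus the cluster with no difference in state between the maps, among its genes and among its neighbours.

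The Hoxd cluster, whose high-numbered genes shape digits and genitalia, spans chr2:74506367-74603200, or 96.8 kb, on the plus strand, with Hoxd13 at the lower end and Hoxd1 at the upper end. In CH12 it lay in an M domain of 300 kb with L domains of 500 and 360 kb on its sides. In primary B cells the M domain was 540 kb long, again between L domains, of 260 and 120 kb. In the MEF-named map it lay in an E domain of 220 kb between M domains of 740 and 480 kb. Hoxd was therefore in an earlier state than both of its adjoining domains in every map. The lower edge of the domain was at the same 20 kb step in CH12 and the MEF-named map, 26.4 kb below Hoxd13.

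The Hoxd domains were rich in genes and differed in length. That of CH12 had 92 shorter ones among 391 M domains between L domains, whose median was 500 kb. It held 12 gene starts, 40.0 per Mb against a median of 7.58, and 6 of the 391, itself included, were at least as dense. In primary B cells the domain was of middling length, with 132 shorter ones among 287 M domains between L domains and a median of 560 kb. It held 13 starts, 24.1 per Mb against 7.14, and 6 of the 287 were at least as dense. In the MEF-named map 26 of 567 E domains were shorter than 220 kb, which is less than the 300 kb span over which the RT values had been smoothed. It held 12 starts, 54.5 per Mb against 11.7 in E domains between M domains, and 6 of 563 were at least as dense. Most of these starts were the 9 Hoxd genes themselves.

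**Figure D2:**
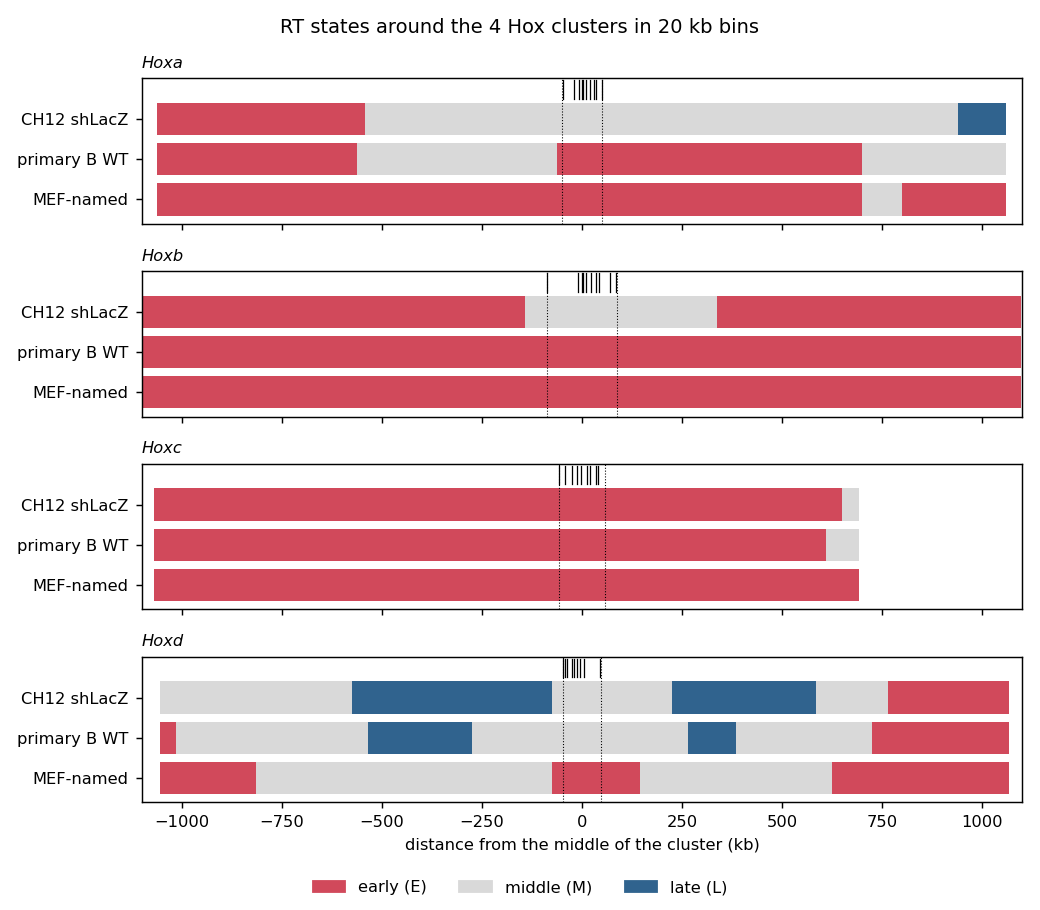
RT states in 20 kb bins within 1000 kb of each cluster, against the distance in kb from the middle of the cluster, with 1 bar for each map, black ticks for the starts of the Hox genes and dotted lines for the ends of the cluster. No change of state falls between the dotted lines, Hoxd is an M or E island in later DNA, and the bars of Hoxc stop where the chromosome ends.

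No domain edge fell inside a cluster in any map. At 96.8 to 174 kb, however, each cluster is shorter than the 300 kb smoothing span, within which short domains can be hidden. How many other stretches of such length hold no edge was not counted. With 100 kb added on each side of a cluster, 1 edge fell near Hoxa in primary B cells, 1 near Hoxb in CH12, 1 near Hoxd in CH12 and 2 near Hoxd in the MEF-named map, and none in the 8 other pairings of cluster and map. The plot of states around the clusters shows these edges. Among the 50 bins of 20 kb within 1000 kb below Hoxa, CH12 had 26 E and 24 M bins, primary B cells 25 of each, and the MEF-named map 50 E bins. Above Hoxa, CH12 had no E bin, 44 M and 6 L bins, primary B cells had 32 E and 18 M bins, and the MEF-named map 45 E and 5 M bins. Around Hoxb all 50 bins on each side were E in primary B cells and in the MEF-named map, and in CH12 48 were E below it and 38 above it. Below Hoxd, CH12 had 25 M and 25 L bins, primary B cells 2 E, 35 M and 13 L bins, and the MEF-named map 13 E and 37 M bins. Above Hoxd, CH12 had 15 E, 17 M and 18 L bins, primary B cells 17 E, 27 M and 6 L bins, and the MEF-named map 26 E and 24 M bins. The DNA on both sides of Hoxd thus had fewer L bins in primary B cells than in CH12, although the Hoxd genes were M in both, and no L bin in the MEF-named map, where the genes were E. L bins were fewer over the whole genome too, at 65405 in CH12, 50094 in primary B cells and 39922 in the MEF-named map. The order is therefore not particular to Hoxd.

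Distance to an edge sets how firmly a gene is placed, since smoothing blurs edges over 300 kb. The median over the 38 Hox genes was 361 kb in CH12, 420 kb in primary B cells and 1590 kb in the MEF-named map, against 305, 314 and 418 kb over all protein-coding gene starts. In each map 9 Hox genes started within 100 kb of an edge. In CH12 these were Hoxb13, at 55.6 kb, and 8 Hoxd genes, from Hoxd13 at 26.4 kb to Hoxd4 at 80.0 kb, with Hoxd1 outside at 121 kb. In primary B cells they were 9 Hoxa genes, Hoxa2 to Hoxa11, and in the MEF-named map they were the 9 Hoxd genes, of which Hoxd1 was at 99.0 kb. The start of Hoxa3 was taken from the longer of its 2 annotation entries and lies above those of Hoxa4, Hoxa5 and Hoxa6. Without the genes that lay within 100 kb of an edge in either map, 10 of 20 Hox genes were earlier in primary B cells than in CH12, all of them Hoxb or Hoxa13, and none of 20 was earlier in the MEF-named map than in primary B cells. The E state of Hoxa in primary B cells and that of Hoxd in the MEF-named map therefore rest on genes close to an edge, while that of Hoxb does not. The M state of Hoxb in CH12, however, was read at starts 55.6 to 227 kb from an edge, less than the 300 kb span.

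**Figure D3:**
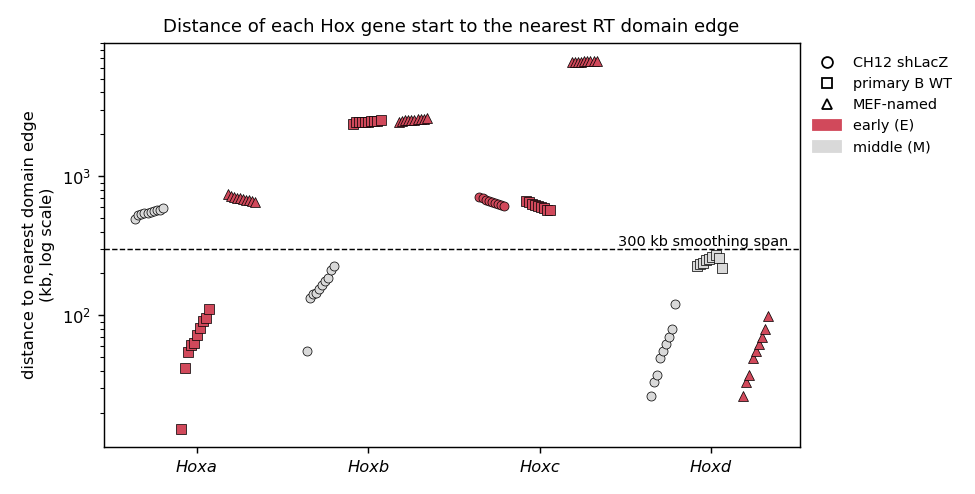
Distance in kb, on a log scale, from the start of each of the 38 Hox genes to the nearest domain edge, by cluster, with circles for CH12, squares for primary B cells and triangles for the MEF-named map, red for E and grey for M, genes in chromosome order from left to right. The Hoxa squares, the Hoxb circles and all Hoxd symbols lie under the dashed line at the 300 kb smoothing span, and the Hoxc symbols lie above it.

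The genes beside the clusters arose in part by the same duplications, and the 5 nearest protein-coding genes outside the Hox list on each side were read, 40 in all. Of these, 27 were E in every map, against 43.9% of all gene starts, and 18 had the pattern of their cluster, 3 at Hoxa, 1 at Hoxb, 10 at Hoxc and 4 at Hoxd. The even-skipped genes, homeobox genes at the high-numbered end, had the pattern of the cluster beside them: Evx1, 52.6 kb from Hoxa, was M-E-E, and Evx2, 8.45 kb from Hoxd, was M-M-E. Hibadh, a mitochondrial enzyme gene of valine breakdown, and Tax1bp1, an autophagy receptor gene, were M-E-E like Hoxa. Mtx2, a gene of mitochondrial import 60.7 kb above Hoxd, and Atf2 and Chn1 farther below it were M-M-E like Hoxd. Lnp, which shapes the endoplasmic reticulum and lies 88.9 kb below Hoxd, was L-M-M and thus later than Hoxd in CH12 and in the MEF-named map.

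Several families had a member beside more than 1 cluster, and they were grouped after their values were seen. Cbx3, Cbx1 and Cbx5, which encode the heterochromatin proteins that read methylated histone H3, lie beside Hoxa, Hoxb and Hoxc and were E in all maps. Hnrnpa2b1, Hnrnpa1 and Hnrnpa3, genes of RNA-binding proteins, lie beside Hoxa, Hoxc and Hoxd and were likewise E in all maps. Nfe2l3, Nfe2l1, Nfe2 and Nfe2l2, which encode stress and blood transcription factors, lie 704 kb from Hoxa, 449 kb from Hoxb, 211 kb from Hoxc and 910 kb from Hoxd and were E in all maps. Skap2 beside Hoxa was M-M-E and Skap1 beside Hoxb was M-E-E, so neither was E in CH12. The Atp5g genes, which encode a subunit of the mitochondrial ATP synthase, were split, with Atp5g1 beside Hoxb and Atp5g2 beside Hoxc E in all maps and Atp5g3, 757 kb from Hoxd, M in all maps.

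The question whether the Hox pattern is that of any cluster of tissue-restricted genes was put to the keratin genes, which encode the filaments of epithelia and hair and form rows on chromosomes 11 and 15. The keratin row of chromosome 15 ends 889 kb below Hoxc and that of chromosome 11 begins 2860 kb above Hoxb. The rows partly share domains with these clusters. In the MEF-named map all 24 keratin genes of chromosome 15 lay in the E domain of Hoxc. In the B cell maps that of Hoxc began within the row. The row of chromosome 11 began inside the E domain of Hoxb in primary B cells and the MEF-named map. Of 51 keratin genes, 26 were E and 25 M in CH12, 22 were E and 29 M in primary B cells, and 44 were E and 7 M in the MEF-named map. The E shares of all gene starts were 50.6%, 58.0% and 58.6% in the same order. Like the Hox genes, none was L in any map. Unlike Hoxa and Hoxb, none was M-E-E and none was earlier in primary B cells than in CH12, while 4 were later. In the MEF-named map 20 were earlier than in CH12 and 24 earlier than in primary B cells, with 2 later in each comparison, and 20 keratin genes had the M-M-E pattern of Hoxd. Of all gene starts, 23.1% and 13.2% were earlier in these comparisons, 6.81% and 11.8% were later, and 5.71% were M-M-E. Each keratin row held several patterns, but the rows are longer than the Hox clusters, at 1040 kb on chromosome 11 and 685 kb on chromosome 15 against 96.8 to 174 kb. Keratin genes of a row share domains as Hox genes do, so the difference could not be tested.

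**Figure D4:**
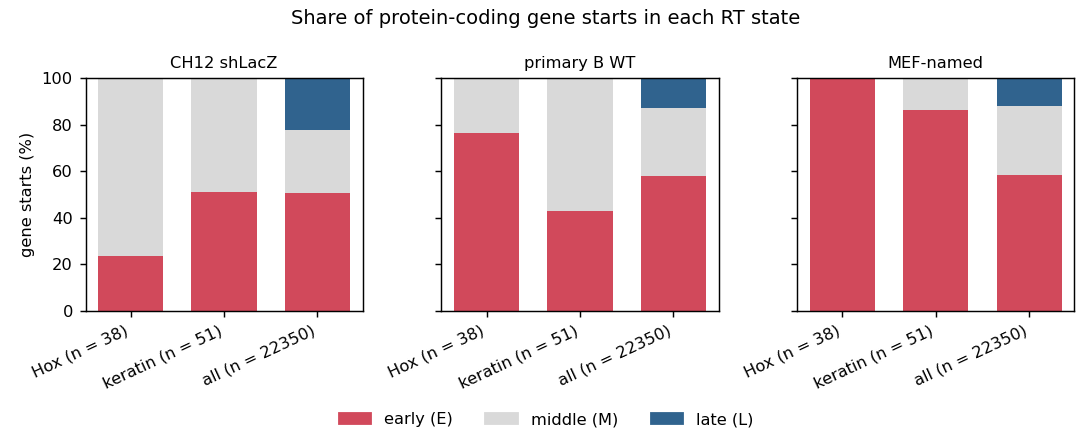
Share in percent of protein-coding gene starts in E, M and L for the 38 Hox genes, the 51 keratin genes and all 22350 protein-coding genes, 1 panel for each map. The E share of the Hox bars is 23.7% in CH12 and covers the whole bar in the MEF-named map, and L appears in the bars of all genes alone.

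The genes that act with or upon the Hox genes were read in the same way. For comparison, E held 50.6% of all gene starts in CH12, 58.0% in primary B cells and 58.6% in the MEF-named map. Of 8 genes of the TALE cofactors, which bind DNA together with Hox proteins, 5 were E, 1 M and 2 L in CH12, 5 E, 2 M and 1 L in primary B cells, and 6 E and 2 M in the MEF-named map. Meis1 was L-M-M, Meis2 L-L-M and Pknox2 M-M-E, and Pbx2, Pbx3, Pbx4, Meis3 and Pknox1 were E-E-E. Of 13 Polycomb genes 11 were E in CH12, all 13 in primary B cells and 11 in the MEF-named map. The exceptions were the same in both, Ezh2, the histone H3 methyltransferase, and Bmi1, a subunit of the ubiquitin ligase complex, each M-E-M. Of 7 trithorax and MLL genes 6 were E in both B cell maps and all 7 in the MEF-named map, with Ash2l as M-M-E. The maps hold no expression, so nothing was measured of the activity of these genes.

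Distal-less and ParaHox genes, which belong to other homeobox families, were read as well. Of the 6 Distal-less genes, which act in limbs, jaws and forebrain, 4 were E in every map, against 43.9% of all gene starts. Dlx5 and Dlx6 were L-L-M. Of the ParaHox genes Gsx1, Pdx1 and Cdx2, relatives of the Hox genes that act in brain, pancreas and gut, all 3 were E in the B cell maps and Gsx1 was M in the MEF-named map. Marker genes of the cell types were also read. The B cell genes Cd79a and Cd79b were E in every map and so do not tell the cell types apart. Pax5 was E in both B cell maps and M in the MEF-named map. The fibroblast genes Col1a1 and Thy1 were E in every map, while Col1a2 was L-M-E, Col3a1 L-L-E and Pdgfra M-M-E. All 5 fibroblast genes were thus E in the MEF-named map, against 58.6% of all gene starts.

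The clusters were richer in GC and CpG than the DNA around them, with the smallest difference at Hoxb. GC content of the clusters was 49.6% for Hoxa, 48.5% for Hoxb, 48.4% for Hoxc and 48.0% for Hoxd. The ratio of observed to expected CpG, which is low in most mammalian DNA and high where CpG islands lie, had a median over 20 kb bins of 0.478 in Hoxa, 0.31 in Hoxb, 0.347 in Hoxc and 0.428 in Hoxd. The flanks of 1000 kb had 0.207, 0.25, 0.197 and 0.215. In CH12 the median of all E bins was 0.213, with a 95th percentile of 0.327, that of M bins 0.188 and that of L bins 0.149. The medians of Hoxa, Hoxc and Hoxd were thus above the 95th percentile of E bins, including those of Hoxa and Hoxd, which were M in CH12. In CH12 Hoxc was E, with a lower ratio than Hoxa and Hoxd and a higher one than Hoxb, all M. In primary B cells Hoxd alone was M, and its ratio lay between those of Hoxa and Hoxc, which were E. In the MEF-named map every cluster was E, so the clusters have no order by state there. Whether the CpG ratio of a cluster is related to its state was not tested.

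**Figure D5:**
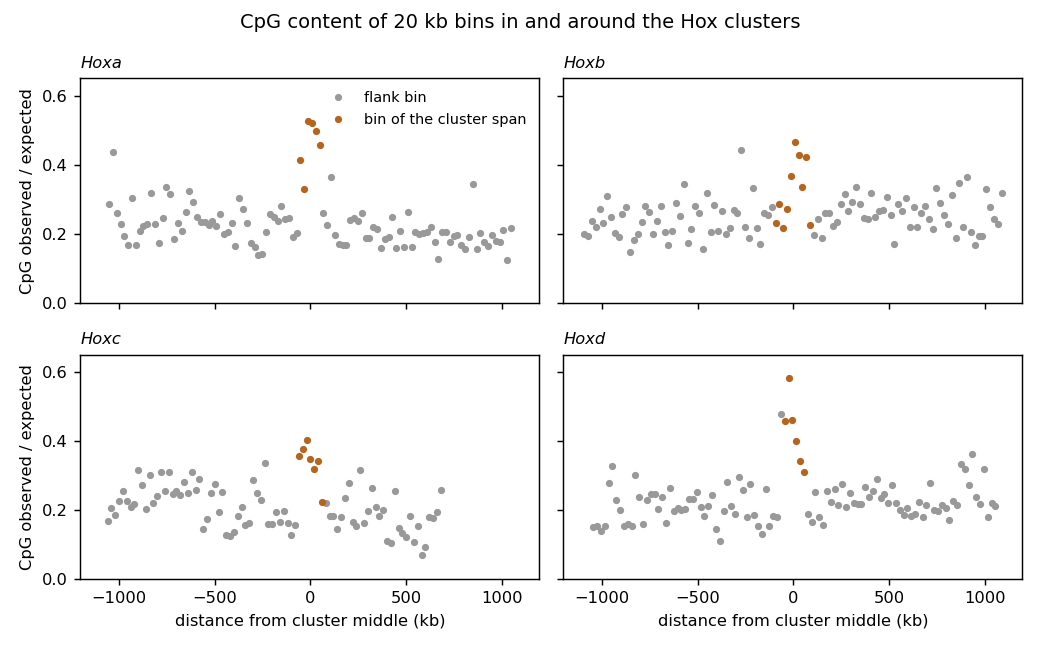
Ratio of observed to expected CpG in 20 kb bins, against the distance in kb from the middle of each cluster, with brown points for bins of the cluster and grey points for the flanks. The brown points reach 0.527 in Hoxa, 0.466 in Hoxb, 0.401 in Hoxc and 0.582 in Hoxd, above the highest grey point of each panel, at 0.437, 0.444, 0.336 and 0.477.

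The promoters of Hoxc9 and Hoxd9, the 250 bases before the annotated start, are shown because these paralogs differed in state in both B cell maps. They were read from the NCBIM37 assembly on the plus strand, at chr15:102806620-102806869 and chr2:74535487-74535736, with each CG in capitals. CG reads the same on both strands.
Hoxc9 promoter: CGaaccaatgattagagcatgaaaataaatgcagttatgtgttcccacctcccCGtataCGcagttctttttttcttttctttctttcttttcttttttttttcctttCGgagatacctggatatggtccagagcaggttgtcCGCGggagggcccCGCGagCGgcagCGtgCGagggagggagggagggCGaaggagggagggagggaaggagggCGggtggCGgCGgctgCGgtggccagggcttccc
Hoxd9 promoter: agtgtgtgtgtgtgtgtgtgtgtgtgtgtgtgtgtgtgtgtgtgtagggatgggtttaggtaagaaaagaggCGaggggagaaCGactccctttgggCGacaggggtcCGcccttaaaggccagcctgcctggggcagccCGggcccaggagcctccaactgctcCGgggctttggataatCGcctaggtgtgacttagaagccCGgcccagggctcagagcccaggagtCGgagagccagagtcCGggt
The window of Hoxc9 held 16 CG and that of Hoxd9 10. Over the 38 Hox genes the number ran from 2 for Hoxa2 to 41 for Hoxa4, with a median of 11, and every Hox window held at least 1 CG. Over all 22350 protein-coding genes the median was 8 and 7.53% of windows held none, and over the 51 keratin genes the median was 3. The medians by cluster were 11.5 for Hoxa, 9 for Hoxb, 14 for Hoxc and 9 for Hoxd. Genes of 1 cluster had very different windows, as with Hoxa4 at 41 and Hoxa9 at 3, both M-E-E. Likewise Hoxd13 had 31 and Hoxd4 had 3, both M-M-E. Such genes had to share a state, since no edge lies inside a cluster. Whether the number of CG in a window is related to state was not tested. Many Hox genes have further start sites, and only the outermost one was read.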

How the data were processed

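According to the study's methods, reads were trimmed with Trim Galore 0.6.5, aligned to mm9 with BWA 0.7.17 and filtered for unique alignments with SAMtools 1.9. The replicates of a condition were pooled, and duplicate reads were dropped. The authors computed log2 ratios of early to late reads in 20 kb windows with deepTools, smoothed them by loess over 300 kb and called 3 states with a hidden Markov model. The deposited maps hold the limits and the state number of each domain, with 2625 domains for CH12, 2661 for primary B cells and 2151 in the MEF-named map. Merging removes the replicate spread, and smoothing blurs edges and can hide short domains.

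Here each gene was given the state of the domain over its start, from the NCBIM37 assembly and GENCODE M1 with 37252 genes. The maps of all 20 chromosomes reached the chromosome length of this assembly. State numbers were named by gene density, and GC content gave the same order in all 3 maps. A distance of 100 kb or less counted as near an edge. The genes named are all 38 listed Hox genes, the 5 nearest protein-coding genes outside the Hox list beyond each end of a cluster, and lists of cofactor, even-skipped, Polycomb, trithorax, Distal-less, ParaHox, microRNA and marker genes. Kmt2a is Mll1 and Kmt2b is Wbp7 in the annotation. These genes and lists were chosen with earlier results of these data known. A few genes and sequences on these lists are not reported here. Functions were tested on simulated domains. Python 3.11.15, numpy 2.4.6 and matplotlib 3.10.9 were used.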

Additional observations from a re-analysis of the deposited data

How the results depend on the processing

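No paired analysis was possible because each condition had a single map made from pooled replicates. The counts of Hox genes by state, and between maps, were identical with a window of 150 kb on each side. They were also identical with the gene end, the gene middle, the whole gene body or domains under 100 kb replaced. None of these settings, the window included, could change them. No edge lies inside a cluster, and no domain around a cluster was under 100 kb. The shortest such domain was 220 kb, so the domain over a start always fills most of the window. Of 181 alternative values over 58 results, 167 were within 1.5 times the reported value and 14 were not. The 167 include the values that could not change. Without genes within 100 kb of an edge in either map, 10 of 20 Hox genes were earlier in primary B cells than in CH12, 19 of 28 earlier in the MEF-named map than in CH12, and 0 of 20 earlier in the MEF-named map than in primary B cells. With 100 kb added on each side of the cluster, the edges inside rose from 0 to 1 for Hoxa in primary B cells, 1 for Hoxb in CH12, 1 for Hoxd in CH12 and 2 for Hoxd in the MEF-named map. The remaining moves were in the share of E bins in the flanks. Beside Hoxa in CH12 it was 26.0% within 1000 kb, 2.00% within 500 kb and 15% within 2000 kb. Beside Hoxd it was 0% within 500 kb in both B cell maps, 38.5% (CH12) and 41.0% (primary B cells) within 2000 kb, and 10% within 500 kb in the MEF-named map. Depth per bin is unknown, and with 1 map per condition the error of a state or of an edge cannot be given.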
